A study of Mus musculus with 39 samples.

Results

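Enhancers that carried H3K4me1 without H3K27ac or H3K27me3 in double-positive (DP) cells, and that carried H3K27ac in Oct4 cells, were examined in mouse naive extra-embryonic endoderm (nEnd). They are called members here. Members were chosen by measured peaks: a region of a mark was a set of merged peaks from the 3 libraries of a population with a peak in 2 or more of them, and a member was an H3K4me1 region of DP that lay outside promoters (1 kb upstream to 100 bp downstream of a TSS), overlapped no H3K27ac or H3K27me3 region of DP, and overlapped an H3K27ac region of Oct4. In all, 1185 of 5591 DP H3K4me1 regions outside promoters were members. They made up 34.9% of the 3400 DP regions with neither H3K27ac nor H3K27me3 (primed regions), and the other 2215 primed regions served for comparison. nEnd is a cultured counterpart of the primitive endoderm of the blastocyst, here untreated and from 1 cell line, the OCT4-mCherry reporter line, in which mCherry reports OCT4. FACS separated the populations by OCT4-mCherry and by an APC-labelled antibody to PDGFRA, into Oct4 (OCT4-mCherry only), DP (both) and Pdgfra (PDGFRA only). CUT&Tag, in which an antibody brings a transposase to a histone mark, gave 36 libraries over 4 marks, 3 populations and 3 replicates, and the labels do not say whether the replicates came from separate cultures.

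H3K4me1 is laid down at enhancers and can precede their use, whereas H3K27ac marks enhancers and promoters in use, so a region with H3K4me1 alone is called primed. H3K27me3 is the mark of Polycomb repressive complex 2, and H3K9me3 is found at heterochromatin and many silenced repeats. In the blastocyst the inner cell mass gives rise to the epiblast, which keeps NANOG and OCT4 (encoded by Pou5f1), and to the primitive endoderm, which turns on GATA6, GATA4, SOX17 and PDGFRA.

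The data are lists of called peaks, so every share below is a share of regions with a listed peak, and sequencing depth is unknown. Lists held from 1074 peaks (H3K4me1, Pdgfra) to 65131 peaks (H3K27ac, Oct4). The smallest total signal of a listed peak (fragment coverage summed over its bases, not scaled for depth) lay at 5460 to 6021 in the 3 Oct4 H3K27ac lists and at 13683 to 14586 in the 3 DP H3K27ac lists. A region could therefore pass in Oct4 and not in DP at the same unscaled signal, and how much of the selection this accounts for was not tested. Once peaks under 14586 were left out of the H3K27ac lists of both populations, 351 regions met the rule, and 340 of the 1185 members overlapped them. Population labels were checked on H3K27ac peaks within 1 kb of the TSS of 6 marker genes a lineage. In Oct4, 5 of 6 epiblast markers had such a peak in 2 or more libraries, against 1 of 6 in DP and 1 of 6 in Pdgfra. For primitive endoderm markers the numbers were 2, 6 and 5 of 6, and for trophectoderm markers 2, 1 and 1 of 6. Esrrb was at 0 libraries in every population, and Gata6 and Col4a1 were acetylated in 2 Oct4 libraries.

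The values behind the choice of members are given as a description. Among members, 392 had an Oct4 H3K27ac peak in all 3 libraries, 738 in 2 and 55 in 1, the last being regions where peaks of different libraries merged beside the member. Replicates 1, 2 and 3 had a listed Oct4 H3K27ac peak over 94.9, 98.0 and 35.5% of members. Replicate 3 held the shortest of these lists, 8574 peaks, so most members rest on the first 2 replicates. In DP, 755 members had no H3K27ac peak in any library, 424 had one in 1 library, just inside the rule, and 6 had separate peaks of 2 libraries that did not touch. On the other side of the threshold, 843 of the other primed regions had an Oct4 H3K27ac peak in 1 library and 95 lay within 1 kb of an Oct4 H3K27ac region. The shared stretch had a median of 3316 bp and was as short as 9 bp, and it spanned over 50% of the member in 981 cases. The middle of the strongest Oct4 H3K27ac peak's maximum lay inside the member in 83.0% of members, and its median distance from the DP H3K4me1 maximum was 0.741 kb.

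The sequences below are of 6 members at genes of the pluripotency and Nodal pathways, since the results on single loci turn on them. Each is 300 bases of GRCm38, plus strand, centred on the maximum of the strongest Oct4 H3K27ac peak over the member, and none overlaps an annotated exon. Capitals mark matches, on either strand, to any of 12 motifs spelled out further on.
Nanog far member, chr6:122662024-122662323: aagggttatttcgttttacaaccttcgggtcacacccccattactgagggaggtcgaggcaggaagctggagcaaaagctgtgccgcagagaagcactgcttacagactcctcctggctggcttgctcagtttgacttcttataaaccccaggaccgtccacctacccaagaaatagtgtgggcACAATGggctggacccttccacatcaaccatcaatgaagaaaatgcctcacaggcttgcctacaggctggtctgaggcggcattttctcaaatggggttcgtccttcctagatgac
Nanog near member, chr6:122702589-122702888: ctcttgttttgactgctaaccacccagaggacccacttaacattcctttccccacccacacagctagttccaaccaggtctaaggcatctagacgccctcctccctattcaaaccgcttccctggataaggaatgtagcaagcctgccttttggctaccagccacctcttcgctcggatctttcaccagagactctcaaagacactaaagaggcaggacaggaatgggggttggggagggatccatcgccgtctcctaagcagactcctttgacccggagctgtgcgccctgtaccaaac
Pou5f1 upstream member, chr17:35491085-35491384: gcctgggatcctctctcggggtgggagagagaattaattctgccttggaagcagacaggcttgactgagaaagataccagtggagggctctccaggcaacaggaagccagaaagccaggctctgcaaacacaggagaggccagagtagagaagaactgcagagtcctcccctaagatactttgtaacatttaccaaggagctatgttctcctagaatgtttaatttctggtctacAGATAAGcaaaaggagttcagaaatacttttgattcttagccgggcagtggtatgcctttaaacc
Tet2 first member, chr3:133533622-133533921: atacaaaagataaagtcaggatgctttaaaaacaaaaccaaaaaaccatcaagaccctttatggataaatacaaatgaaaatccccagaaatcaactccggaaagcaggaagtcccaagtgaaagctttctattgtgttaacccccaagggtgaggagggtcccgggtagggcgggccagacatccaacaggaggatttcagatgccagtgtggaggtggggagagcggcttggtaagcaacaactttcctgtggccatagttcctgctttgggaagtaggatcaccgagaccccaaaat
Klf4 downstream member, chr4:55474193-55474492: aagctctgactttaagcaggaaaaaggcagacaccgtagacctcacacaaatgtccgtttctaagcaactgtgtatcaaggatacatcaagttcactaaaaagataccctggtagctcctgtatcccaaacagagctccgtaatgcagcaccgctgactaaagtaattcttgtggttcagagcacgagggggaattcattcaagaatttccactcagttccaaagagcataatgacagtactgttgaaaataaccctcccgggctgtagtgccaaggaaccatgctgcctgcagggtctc
Lefty1 upstream member, chr1:180924744-180925043: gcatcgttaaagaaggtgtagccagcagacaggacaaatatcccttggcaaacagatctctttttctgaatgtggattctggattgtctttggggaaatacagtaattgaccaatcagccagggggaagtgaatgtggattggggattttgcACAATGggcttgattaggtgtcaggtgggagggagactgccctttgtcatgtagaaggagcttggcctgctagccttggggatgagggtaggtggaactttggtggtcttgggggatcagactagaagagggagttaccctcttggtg
The Nanog far and Lefty1 windows each held a SOX match (ACAATG), the Pou5f1 window held a GATA match (AGATAAG), and the other 3 held no match to these letters. Of all members, 20.3% had a SOX match and 7.93% a GATA match in the 400 bp at this maximum.

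The first question was whether members also carried H3K4me1 in Oct4, which the rule did not use. Listed H3K4me1 peaks covered 28.9, 68.0 and 48.3% of members in Oct4 replicates 1 to 3 (48.4 ± 19.5%, mean ± SD, n = 3), and 6.37, 23.8 and 10.9% of the other primed regions (13.7 ± 9.06%). Every Oct4 library was higher at members than at the other primed regions, by 22.6, 44.2 and 37.3 percentage points. In Pdgfra the shares at members were 8.02, 3.97 and 50% (20.6 ± 25.5%), against 9.03, 4.70 and 55.9% (23.2 ± 28.4%) at the other primed regions. All 3 Pdgfra libraries were lower at members, with differences of −1.01, −0.729 and −5.98 points, and replicate 3 stood far above the other 2. Over the 6 libraries together, the difference averaged 16.1 points and did not pass an exact sign-flip permutation test (two-sided p = 0.25, adjusted p = 0.25, for 4 such tests in all). The opposite signs of the 2 populations were compared directly after they had been seen: the difference was 34.7 ± 11.0 points in Oct4 and −2.57 ± 2.95 in Pdgfra, a gap of 37.3 points, with the smallest p that 3 against 3 libraries allow (exact two-sided permutation p = 0.10, adjusted p = 0.150 over 3 marks). At members alone, Oct4 lay 27.8 points above Pdgfra (adjusted p = 0.616 by exact permutation, unadjusted p = 0.300, 3 tests in the family), and the groups overlapped because Pdgfra replicate 3 lay above 2 of the Oct4 libraries.

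By region, 603 members (50.9%) overlapped an H3K4me1 region of Oct4, against 29.5% of all 5591 DP H3K4me1 regions outside promoters and 11.8% of the other primed regions. The 1053 regions outside promoters that were acetylated in both DP and Oct4 had an H3K4me1 region of Oct4 in 54.9%, and a listed H3K4me1 peak in 31.9, 73.9 and 52.1% in Oct4 replicates 1 to 3, so the level at members was not particular to them. An H3K4me1 region of Pdgfra was present at 123 members (10.4%), against 20.1% of all regions and 11.5% of the other primed regions. Taken with the acetylation data, 536 members (45.2%) had an H3K4me1 region in Oct4 and neither H3K4me1 nor H3K27ac in Pdgfra. The same held for 222 of the 2215 other primed regions, 18.2% of all regions and 14.0% of those acetylated in both DP and Oct4. The exclusion of DP-acetylated regions from members also affects the contrast with all regions and with those acetylated in both. An H3K27ac region of Pdgfra was present at 62.2% of regions acetylated in both DP and Oct4 and at 1.77% of members. The strictest form, an H3K4me1 peak in all 3 Oct4 libraries and in no Pdgfra library, was met by 161 members (13.6%), against 4.65% of all regions, 2.35% of the other primed regions and 2.47% of those acetylated in both DP and Oct4. Pdgfra replicates 1 and 2 listed only 1723 and 1074 H3K4me1 peaks, against 4127 to 16057 in the Oct4 lists. How far list length accounts for the lack of H3K4me1 in Pdgfra was not tested. At 358 members (30.2%), H3K27ac was listed in Oct4 but H3K4me1 was listed in no Oct4 library. The same lack of Oct4 H3K4me1 was found at 54.4% of all regions and at 1661 of the 2215 other primed regions. Among the 1053 regions acetylated in both DP and Oct4, it was found at 263. No H3K4me1 peak in any Oct4 or Pdgfra library was found at 163 members (13.8%), against 18.3% of all regions, 31.2% of the other primed regions and 3.80% of those acetylated in both DP and Oct4. H3K4me1 followed the breadth of acetylation, being in at least 2 Oct4 libraries at 69.9% of members acetylated in 3 Oct4 libraries, 41.7% of those acetylated in 2 and 21.8% of those acetylated in 1. The median listed member peak stood at the 64.6th, 79.3rd and 70.5th percentile of its Oct4 H3K4me1 list, against 49.4, 54.1 and 50.7 for the other primed regions, 64.1, 73.3 and 67.2 for all DP H3K4me1 regions and 69.8, 81.8 and 74.8 for those acetylated in both DP and Oct4. Members thus stood above the other primed regions and close to all regions in peak strength. Among the 351 regions left by the common minimum of H3K27ac signal, 44.7, 86.6 and 70.4% had H3K4me1 in Oct4 replicates 1 to 3, against 10.8, 34.0 and 18.6% of the primed regions outside them.

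**Figure D1:**
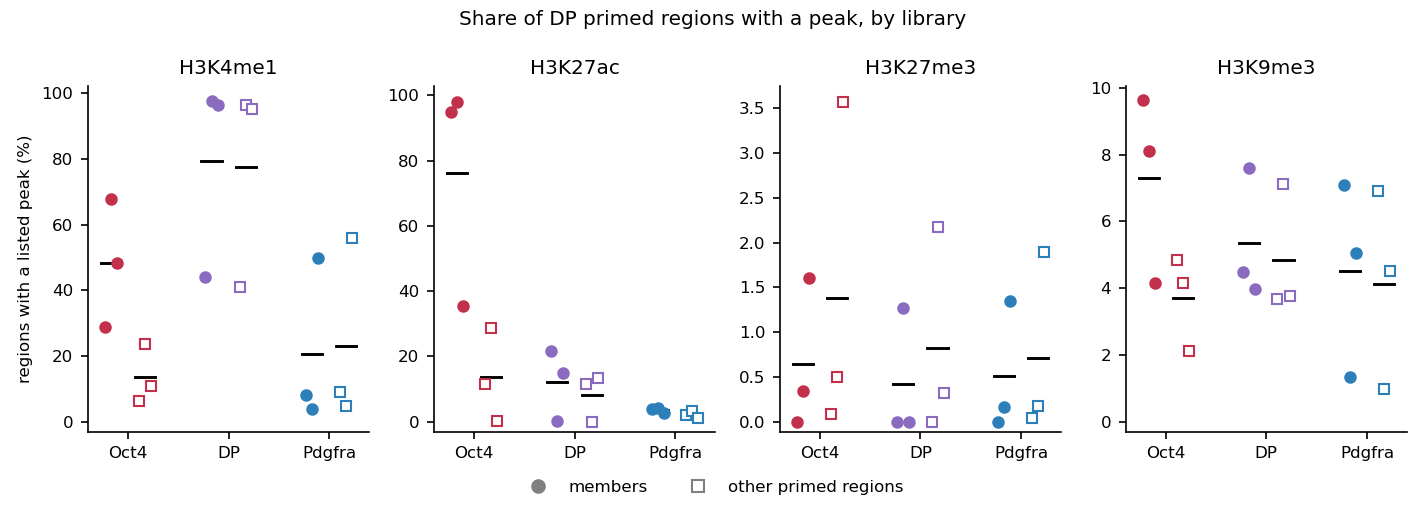
Share of members (filled circles) and of other primed regions (open squares) with a listed peak in each library, in percent, by mark and population; lines are means of the 3 replicates, and each panel has its own axis from 0. H3K4me1 in DP, H3K27ac in Oct4 and DP and H3K27me3 in DP were used to choose the regions; in Oct4, the H3K4me1 shares at members (28.9 to 68.0%) lie above those at the other primed regions (6.37 to 23.8%).

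Around the centre of the DP H3K4me1 region, the Oct4 H3K4me1 peaks covered 20.3, 58.3 and 38.6% of member centres in replicates 1 to 3, and 2.45, 14.3 and 7.34% of the positions 10 kb before them in chromosome coordinates. Oct4 H3K4me1 at members was therefore denser at the region that DP cells marked. At the other primed regions the same libraries covered 4.38, 19.3 and 8.76% of centres and 1.17, 7.54 and 2.75% of positions 10 kb before them.

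**Figure D2:**
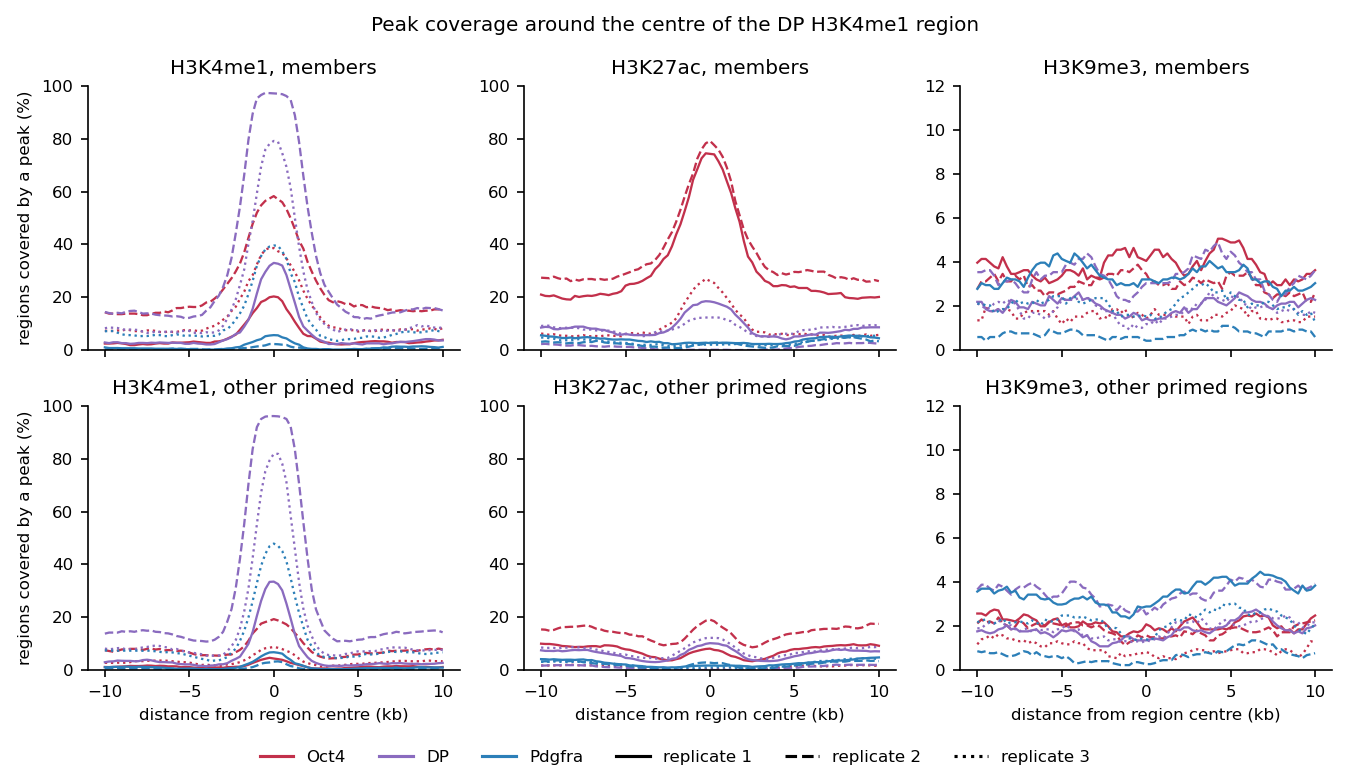
Share of regions covered by a listed peak, in percent, by distance from the centre of the DP H3K4me1 region in kb, for members (top) and other primed regions (bottom); colours are populations and line types replicates, and the H3K9me3 panels have a shorter axis. In Oct4, H3K4me1 and H3K27ac peak at the centre of members, whereas H3K9me3 stays under 6% and has no peak at the centre.

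Acetylation of members was rarely listed in Pdgfra. The smallest listed H3K27ac signals there were 27115, 8736 and 28044 in replicates 1 to 3, against 5460 to 6021 in Oct4. A region could therefore be listed in Oct4 and not in Pdgfra at the same unscaled signal. How much of the rarity this accounts for was not tested. Listed H3K27ac peaks of Pdgfra covered 3.88, 4.22 and 2.78% of members (3.63 ± 0.750%, n = 3) and 2.21, 3.34 and 1.17% of the other primed regions (2.24 ± 1.08%). Members were higher in 3 of 3 libraries, by 1.39 points on average, and 3 libraries cannot give a p under 0.25 (exact sign-flip permutation p = 0.25, adjusted p = 0.25). An H3K27ac region of Pdgfra overlapped 21 members (1.77%), against 20% of all regions, a share that the exclusion of DP-acetylated regions also affects, and 1.49% of the other primed regions. The 5 with the highest rank of signal lay near St5, Foxn3, Trim25, Zmiz1 and Wwtr1, which encodes the Hippo pathway coactivator TAZ. The Wwtr1 member (chr3:57577897-57585322, 1.99 kb upstream of a TSS) had Pdgfra peaks with total signals of 49401 and 23305 in replicates 1 and 2 and none in replicate 3. Its Oct4 H3K27ac signals were 16746 and 20673, again with none in replicate 3. Each of the other 4 had a Pdgfra peak over the member itself in 1 library.

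The repressive marks were uncommon at members. H3K27me3 was listed at 0, 0.338 and 1.60% of members in Oct4 and at 0, 0.169 and 1.35% in Pdgfra, with 0.0903, 0.497 and 3.57% and 0.0451, 0.181 and 1.90% at the other primed regions. Members were lower in 6 of 6 libraries, with a mean difference of −0.469 points, which did not pass after adjustment (exact sign-flip permutation p = 0.0312, the smallest that 6 libraries allow, adjusted p = 0.0625). Between Oct4 and Pdgfra, H3K27me3 at members differed by 0.141 points (exact permutation p = 0.700, adjusted p = 0.700), in a design of 3 against 3 libraries that cannot give a p under 0.10. H3K27me3 regions overlapped 6 members in Oct4 (0.506%, against 2.61% of all regions) and 5 in Pdgfra (0.422%, against 1.99%), where all regions include those with DP H3K27me3 that the rule removes. The other primed regions, from which they are also removed, had 1.58 and 0.722%. The longest of those named was a 20204 bp member in the first part of Fgfr2, which encodes an FGF receptor (chr7:130244255-130264458). There, Oct4 H3K27me3 signals were 22577 and 197154 in replicates 2 and 3, and Oct4 H3K27ac signals were 10764 and 7706 in replicates 1 and 2, so that both marks were listed in replicate 2 alone. Members near Plxna1 and in an intron of Vti1a, with Tcf7l2 (a nuclear effector of Wnt signalling) as the nearest TSS, also had H3K27me3 in Oct4, and 1 in Glis1 had it in Pdgfra.

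H3K9me3 was listed at 9.62, 8.10 and 4.14% of members in Oct4, 4.47, 7.59 and 3.97% in DP and 7.09, 1.35 and 5.06% in Pdgfra. At the other primed regions it was listed at 4.83, 4.15 and 2.12%, 3.66, 7.13 and 3.75%, and 6.91, 0.993 and 4.51%. Members were higher in 9 of 9 libraries, by 1.48 points on average, which passed the test (exact sign-flip permutation p = 0.00391, the smallest that 9 libraries allow, adjusted p = 0.0156). All 9 libraries scored the same regions, so this test speaks only to how the difference repeated over libraries. The gap was 3.58 ± 1.42 points in Oct4, 0.499 ± 0.300 in DP and 0.362 ± 0.184 in Pdgfra, and a test of whether it differed between populations, added after the values were seen, missed the threshold after adjustment (exact permutation p of the F statistic = 0.0214, adjusted p = 0.0642). Members were wider than the other primed regions (median 4343 against 3842 bp), and within the central 1 kb the gap was 0.967 points and no longer passed (adjusted p = 0.109 by the same exact test). The shares at members themselves did not pass a test between the populations (Oct4 minus Pdgfra 2.78 points, exact permutation p of the F statistic = 0.411, adjusted p = 0.616).

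In Oct4, 91 members (7.68%) overlapped an H3K9me3 region, against 5.37% of all regions and 3.57% of the other primed regions. Regions acetylated in both DP and Oct4 had one in 8.17%, and a listed Oct4 peak in 10.4, 8.36 and 6.17% in replicates 1 to 3, each above the share at members. In DP it was 61 members (5.15%, against 4.92% of all regions) and in Pdgfra 56 (4.73%, against 4.85%), both close to the background. H3K9me3 in Oct4 and in neither other population was found at 59 members (4.98%), against 2.95% of all regions and 4.08% of those acetylated in both DP and Oct4. In 80 of the 91 members, the Oct4 H3K9me3 and H3K27ac regions shared bases inside the member. The rule favours such sharing, since every member overlaps an Oct4 H3K27ac region and 981 of the 1185 were over 50% covered by one. The H3K9me3 region spanned a median of 2151 bp of the 91 members. No expected share was computed. Members with Oct4 H3K9me3 held more repeats, with a median of 31.6% soft-masked sequence against 21.7% in members without it, and 49.5% of them were acetylated in 3 Oct4 libraries, against 31.7%. The other primed regions with H3K9me3 held as many repeats (31.3% against 21.2%). Members with H3K9me3 peaks in all 9 libraries included one near Zfp978, a zinc finger gene, with signals of 47943, 37138 and 22466 in Oct4, 68368, 127787 and 54373 in DP and 145460, 73270 and 88770 in Pdgfra, and others near Rnf216, Gse1, Cenpa and Slc35g1.

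Genes of naive pluripotency were the list with the largest share of genes near members. A member lay within 20 kb of the TSS of 6 of 25 naive pluripotency genes (24.0%), against 620 of all 21938 protein-coding genes (2.83%): Nanog, Pou5f1, Klf5, Tbx3, Tet2 and Dppa5a. Within 50 kb it was 9 of 25, against 6.84% of all genes. The lists were chosen with earlier results of these data known, so these counts are a description. Other primed regions lay within 20 kb of 8 of the same 25 genes, and those regions are more numerous than members.

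A pair of members lay upstream of Nanog, which encodes a transcription factor of the epiblast, on chromosome 6. The far one (chr6:122660350-122668141) ran from −47.1 to −39.3 kb of the Nanog TSS and from 33.9 to 41.7 kb of that of Dppa3, a gene of naive pluripotency and the germ line. Its H3K4me1 signals were 15001, 82618 and 43659 in Oct4, 8945, 51507 and 30934 in DP, and 9880 in Pdgfra replicate 3 alone. Its H3K27ac signals were 10576, 11470 and 5758 in Oct4, and no H3K27ac peak was listed in any DP or Pdgfra library. The near one (chr6:122701725-122704623) ran from −5.76 to −2.87 kb, with Oct4 H3K27ac signals of 66965, 41366 and 14283, Oct4 H3K4me1 signals of 8655, 21817 and 17946, and DP H3K4me1 signals of 15780 and 14648 in replicates 2 and 3, and its only Pdgfra peak was H3K4me1 in replicate 3 (9975). In each Oct4 library the near member thus had the larger total H3K27ac signal and the far one the larger total H3K4me1 signal. The single Pdgfra H3K4me1 signals of the pair were close. These totals are summed over the bases of a peak, and the far member was the wider (7792 against 2899 bp). Signal per base was not compared. The only other DP region between them, from −35.1 to −31.5 kb, was primed without Oct4 acetylation.

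Upstream of Pou5f1, 1 member (chr17:35483807-35492727) ran from −22.2 to −13.3 kb of the TSS. Its H3K27ac signals were 14700, 8313 and 7225 in Oct4 and 20057 in DP replicate 1, with no peak in the other 2 DP libraries or in Pdgfra, and its H3K4me1 signals were 40060 and 22394 in DP replicates 2 and 3, 5719 and 28328 in Oct4 replicates 1 and 2 and 10177 in Pdgfra replicate 3. A single further DP H3K27ac library would have removed it. Nearer the gene, DP H3K4me1 was listed in all 3 libraries from −5.25 to −0.25 kb of the Pou5f1 TSS. That region reached the promoter, so the rule left it out. Over that stretch, H3K27ac was listed in 2 or 3 Oct4 libraries, in 1 DP library and in 1 Pdgfra library. No member lay within 50 kb of the TSS of Esrrb or Tfcp2l1, both factors of naive pluripotency. Among DP H3K4me1 regions outside promoters, an H3K27me3-marked one lay 41.1 to 43.9 kb into Esrrb. Tfcp2l1 held an acetylated one at 17.2 to 23.1 kb and a primed one without Oct4 acetylation at 29.1 to 34.4 kb. Regions that touch a promoter were not considered. The study lists both genes among those within 20 kb of primed DP enhancers, by its own peak classes.

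Tet2, which encodes a dioxygenase that oxidises 5-methylcytosine, held 4 members in introns within 32.9 kb, 3 of them acetylated in all 3 Oct4 libraries. The one nearest to the TSS (chr3:133529470-133536762) had Oct4 H3K27ac signals of 44638, 32034 and 24821, a mean rank at the 98.6th percentile of the 3 lists, and a DP peak in replicate 1 alone. The second (chr3:133522886-133528662) had 47280, 41304 and 8823 in Oct4 and no DP peak. Neither had a listed H3K4me1 or H3K27ac peak in Pdgfra. Downstream of Klf4, another factor of naive pluripotency, a 12163 bp member (chr4:55470209-55482371) lay 50.1 to 62.3 kb beyond the TSS and was among the 10 most acetylated members, with Oct4 signals of 82143, 60301 and 29984. Its H3K4me1 was listed in 3 of 3 Oct4 libraries (8101, 56237 and 37957), 3 of 3 DP libraries (14454, 65123 and 18381) and no Pdgfra library. Its H3K27ac peaks outside Oct4 were in single libraries, 23496 in DP replicate 1 and 8846 in Pdgfra replicate 2. A member beside Dppa5a (chr9:78362347-78366919), an early pluripotency gene, began 1.26 kb from the TSS and had Oct4 H3K27ac signals of 23522, 18465 and 10855, and a DP signal of 16574 in replicate 1. A member in Klf5 (chr14:99303410-99313823) had 7665 and 9503 in replicates 1 and 2 and none in replicate 3, and one within Tbx3 (chr5:119677240-119684043) had 22262, 14509 and 8035. Acetylation in 3 of 3 Oct4 libraries thus held at the Nanog, Pou5f1, Tet2, Klf4, Dppa5a and Tbx3 members named here, and not at the intronic Klf5 one.

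**Figure D3:**
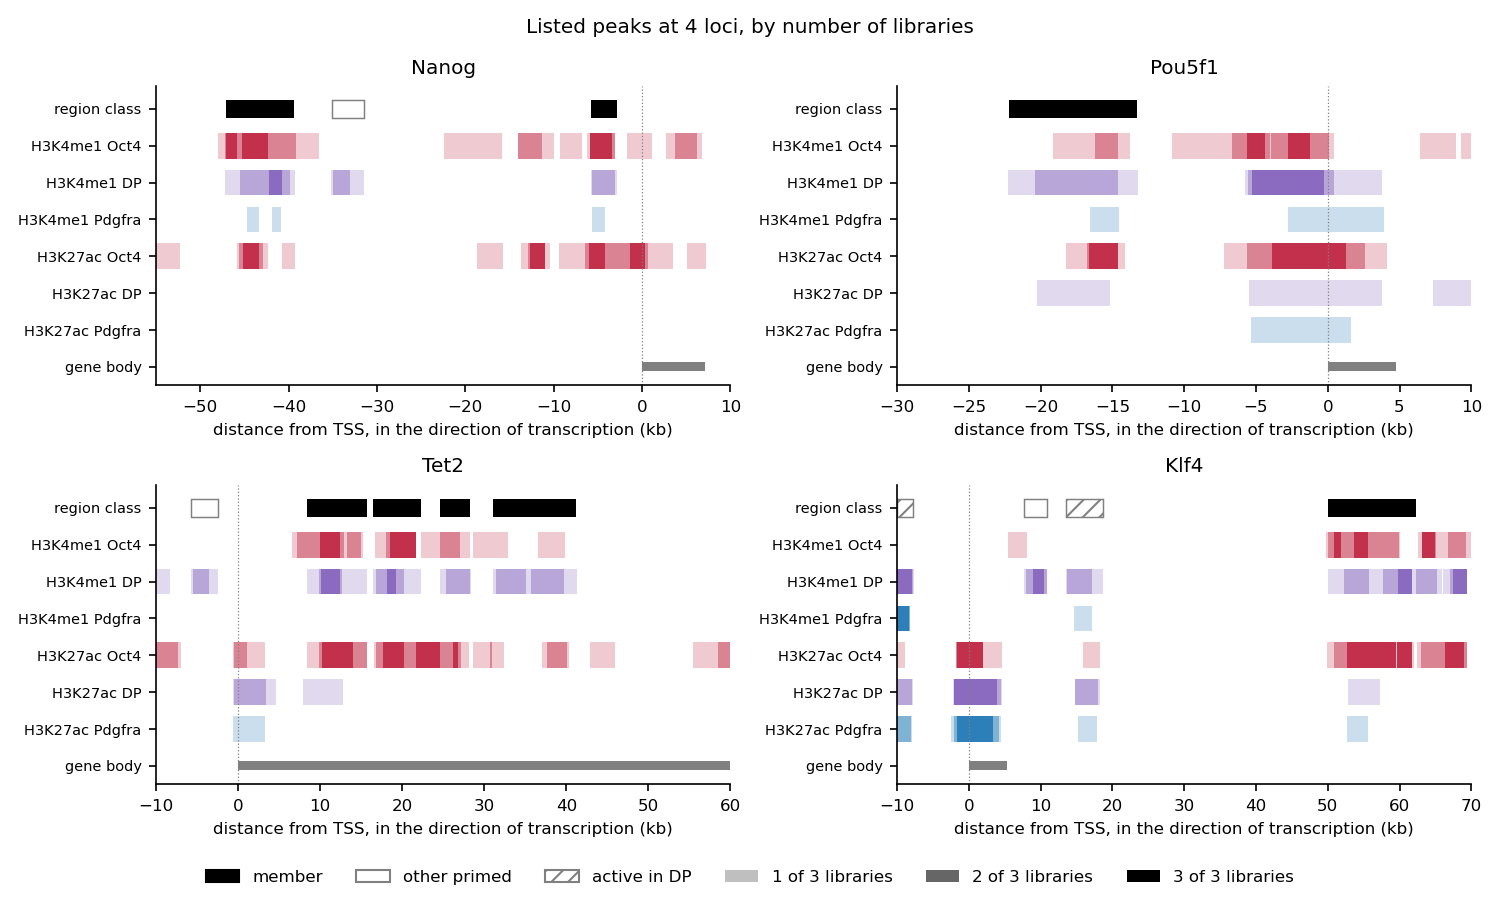
Listed H3K4me1 and H3K27ac peaks of the 3 populations at Nanog, Pou5f1, Tet2 and Klf4, by distance from the TSS in kb along the direction of transcription; shading gives the number of libraries (1, 2 or 3) with a peak, and the top row gives members (black), other primed regions (open) and regions with H3K27ac in DP (hatched). Members have H3K4me1 in DP and both marks in Oct4, and the H3K27ac rows of DP and Pdgfra are empty or hold single libraries there.

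By share of each list, genes of signalling pathways were fewer near members than those of naive pluripotency. Of 20 Nodal and BMP genes, 4 had a member within 20 kb (20%, against 2.83% of all genes): Lefty1, a Nodal inhibitor, Smad3, a transducer of Nodal and activin signals, and Id1 and Id2, BMP targets that encode inhibitors of helix-loop-helix factors. The Lefty1 member (chr1:180913860-180931627) spanned 17768 bp from −21.2 to −3.39 kb of the TSS, and had Oct4 H3K27ac signals of 10436 and 8791 in replicates 1 and 2 and a DP signal of 21413 in replicate 1. It also had H3K27me3 in replicate 3 of Oct4 (50916) and of Pdgfra (45766). The Id1 member (chr2:152725365-152731388) had H3K4me1 in all 3 Oct4 libraries (20802, 71673 and 41282) and H3K27ac in the first 2 (8700 and 19098), with a DP signal of 16177 in replicate 3. None of the 4 was acetylated in all 3 Oct4 libraries. Of 20 Wnt genes, 2 had a member within 20 kb, Axin2 and Znrf3, both negative regulators of the pathway, and of 19 LIF and JAK-STAT genes 1 did, Cish, which encodes an inhibitor of cytokine signalling. The Cish member, in an intron of Mapkapk3 (chr9:107277783-107283011), had H3K4me1 in 3 of 3 Oct4 libraries (5437, 34324 and 15802), H3K27ac in the first 2 (13098 and 19632) and Oct4 H3K9me3 in all 3 (14466, 14444 and 4834). Counted from a single TSS per gene, at its annotated 5′ end, no member lay within 20 kb of any of 17 genes of formative and primed pluripotency. The same held for 20 FGF and ERK genes. Within 50 kb these counts were 2 and 4, and LIF and JAK-STAT genes numbered 4. The Fgfr2 member named above lay 1.73 kb from another annotated TSS of that gene, so the FGF and ERK counts leave it out.

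Lineage genes were counted for members and for the other primed regions side by side. Of 25 primitive endoderm genes, 1 had a member within 20 kb, Hnf4a, which encodes a nuclear receptor of endoderm, whereas 7 had one of the other primed regions, Gata6 and Sox7 among them. Of all protein-coding genes, 2.83% had a member and 5.32% another primed region within 20 kb, so the 1 of 25 was near its background. Within 50 kb it was 3 against 13 of the 25, with 6.84 and 12% of all genes. For naive pluripotency genes it was 6 against 8 within 20 kb and 9 against 12 within 50 kb. The Hnf4a member (chr2:163514704-163517497) was intronic, with Oct4 H3K27ac signals of 11091 and 10282 in replicates 1 and 2 and no listed H3K4me1 in Oct4. Counted from the same single TSS per gene, 2 of 25 trophectoderm genes had a member within 20 kb, Id2 and Dlx3. The Fgfr2 member is left out of this count, although Fgfr2 is on that list. No test was made of these counts.

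The 10 most acetylated members, by mean rank of Oct4 H3K27ac signal, had a mean percentile of 99.3 or more in the 3 lists. The first, 18.7 kb upstream of Mkrn1, an E3 ubiquitin ligase gene (chr6:39439140-39451584), had Oct4 H3K27ac signals of 163197, 129166 and 39188, DP H3K27ac in replicate 3 alone (22498) and H3K4me1 in all 6 Oct4 and DP libraries. The second, in an intron of Etl4 (chr2:20650581-20674050), spanned 23470 bp and had 87826, 153786 and 38917. The others lay near or in Vwa3b, Tdrp, Sptlc2, Gtf2ird1, Klf4, H2al2a, Plpp3 and Actr2, a gene of the Arp2/3 actin complex. Of the 10, 7 had no Pdgfra H3K27ac peak in any library, and the Vwa3b, Tdrp, Sptlc2, Gtf2ird1 and Actr2 members had none in DP either. Such a lack was not particular to them: 90.5% of all members had no Pdgfra H3K27ac peak, and 63.7% had none in DP. Of all DP H3K4me1 regions outside promoters, 69.3% had none in Pdgfra and 47.5% none in DP. Of the 10, the Actr2 and Gtf2ird1 members also carried H3K9me3, in 8 and 7 of 9 libraries. Members were spread over 974 nearest genes, 823 of which had 1 member only. Rybp, which encodes a subunit of Polycomb repressive complex 1, Sipa1l3 and Zfp704 were nearest to 5 members each, and 10 genes to 4 each, Tet2, Tbx3, Dcbld1 and Etl4 among them. Runs of members within 20 kb of each other held 193 members in 89 runs, and the longest, of 5 members over 99.2 kb, lay at Zfp704.

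Members lay mostly within genes. At their centre the annotation had an intron in 61.1%, an exon in 3.80% and no protein-coding gene in 35.1%, against 52.7, 3.70 and 43.6% for the other primed regions. The intron share was 57.3% for all DP H3K4me1 regions outside promoters and 67.5% for those acetylated in both DP and Oct4. The median distance to the nearest protein-coding TSS was 21.9 kb for members, 23.3 kb for the other primed regions and 14.1 kb for regions acetylated in both DP and Oct4. Members had a median GC content of 46.9% and 22.3% repeats, against 46.4 and 21.6% in the other primed regions and 36.4% repeats in the genome. Repeats differed within the members by acetylation, with a median of 25% in members acetylated in 3 Oct4 libraries and 20.7% in those acetylated in 2. Ranked by Oct4 H3K27ac signal and split into 3 equal bins within each library, the highest bin of members had a median of 24.2, 23.1 and 30.3% repeats in replicates 1 to 3, against 20.7, 21.5 and 22.5% in the lowest bin. Ranked by DP H3K4me1 signal, the highest bin had 20.4, 23.0 and 21.9% and the lowest 23.9, 21.9 and 22.8%. Repeats thus rose with signal in each Oct4 H3K27ac library, most in replicate 3, whereas the DP H3K4me1 libraries went both ways.

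**Figure D4:**
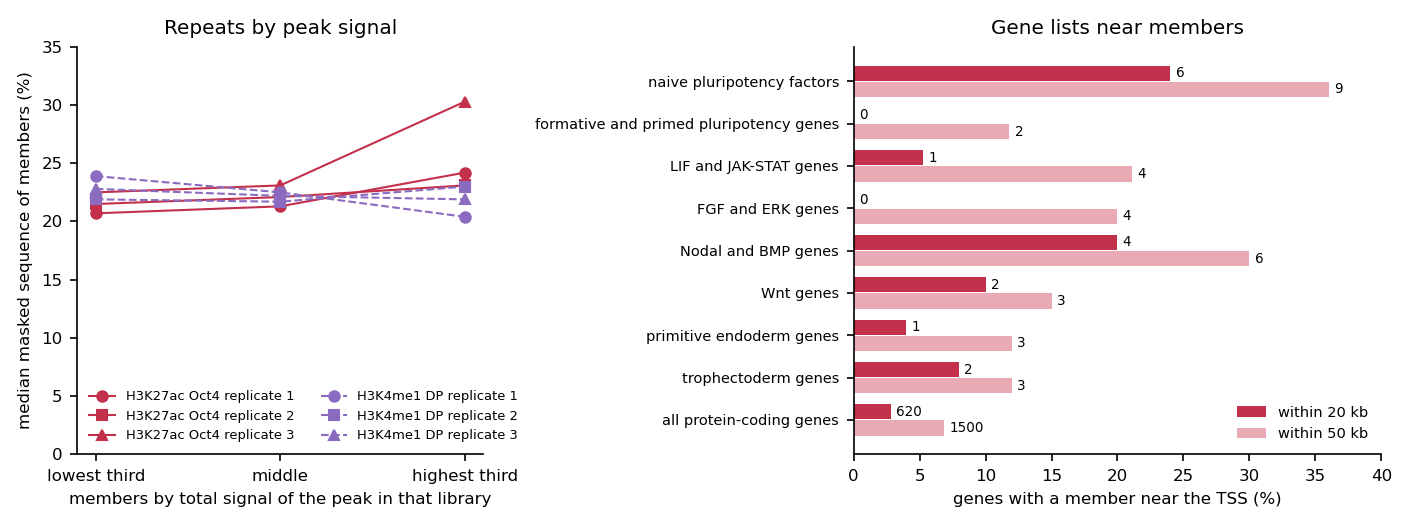
Left, median share of repeats (soft-masked sequence, percent) in members split into 3 equal bins by the total signal of the listed peak, for each Oct4 H3K27ac and DP H3K4me1 library; the 3 Oct4 H3K27ac lines rise to 24.2, 23.1 and 30.3%. Right, share of genes of each list with a member within 20 or 50 kb of the TSS (percent), with the number of genes at each bar; the naive pluripotency list is at 24.0 and 36%, and all protein-coding genes at 2.83 and 6.84%.

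Short motifs, 12 in number, were looked for in 400 bp of each region, reading either strand, first at the centre of the region. For the factors of pluripotency these were a POU octamer (ATGCAAAT), the element bound by SOX proteins (ACAATG), the joint SOX-POU motif with 1 base between (TTGTNATGC) and its compressed form (TTGTATGCA), which can share bases with POU or SOX matches, and the letters read by ESRRB (TCAAGGTCA), KLF proteins (GGGNGGGGC) and STAT proteins (TTCCNGGAA). For the factors of endoderm they were the GATA motif, written as AGATAAG, and the forkhead motif of FOXA proteins, written as TGTTTAC. The rest, of trophectoderm or general use, were the TEAD motif (ACATTCCA), the AP-1 motif, written as TGANTCA and shared by many cell types, and the TFAP2 motif (GCCNNNGGC). GATA matches, with the largest gap at the centre, were present in 8.27% of members, 11.6% of the other primed regions and 10.1% of all 5591 regions at the centre, and in 14.0, 20.4 and 18.4% at the DP H3K4me1 maximum. FOXA matches were also fewer at members, with 5.23 against 7.18% at the centre and 5.06 against 7.99% at the maximum. The POU octamer was in 2.53% of members and 2.08% of the other primed regions at the centre, and in 3.46 and 2.21% at the maximum. SOX matches were in 21.9 and 22.8% at the centre and 26.4 and 31.4% at the maximum. SOX-POU with 1 base between was in 1.52 and 0.993% at the centre and 0.928 and 0.813% at the maximum, from 18 and 11 members. ESRRB was in 2.03 and 1.08% at the centre and 1.77 and 1.35% at the maximum. STAT, for which members and other primed regions had 1.18 and 1.58% at the centre and 2.19 and 2.17% at the maximum, changed order with the window. Over whole regions, GATA matches came to 0.174 per kb in members and 0.216 per kb in the other primed regions, FOXA matches to 0.146 and 0.156 per kb, and POU octamers to 0.0553 and 0.0565 per kb. GATA and FOXA matches were thus fewer at members than at the other primed regions by each of these measures, whereas the excess of the POU octamer at members was present in the windows and not over whole regions. Over whole regions, those acetylated in both DP and Oct4 had 0.171 GATA and 0.145 FOXA matches per kb, close to members. In the windows they had GATA in 6.65% and FOXA in 6.08% at the centre, and 16.6 and 7.79% at the maximum. At the maximum their FOXA share was thus close to that of the other primed regions.

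**Figure D5:**
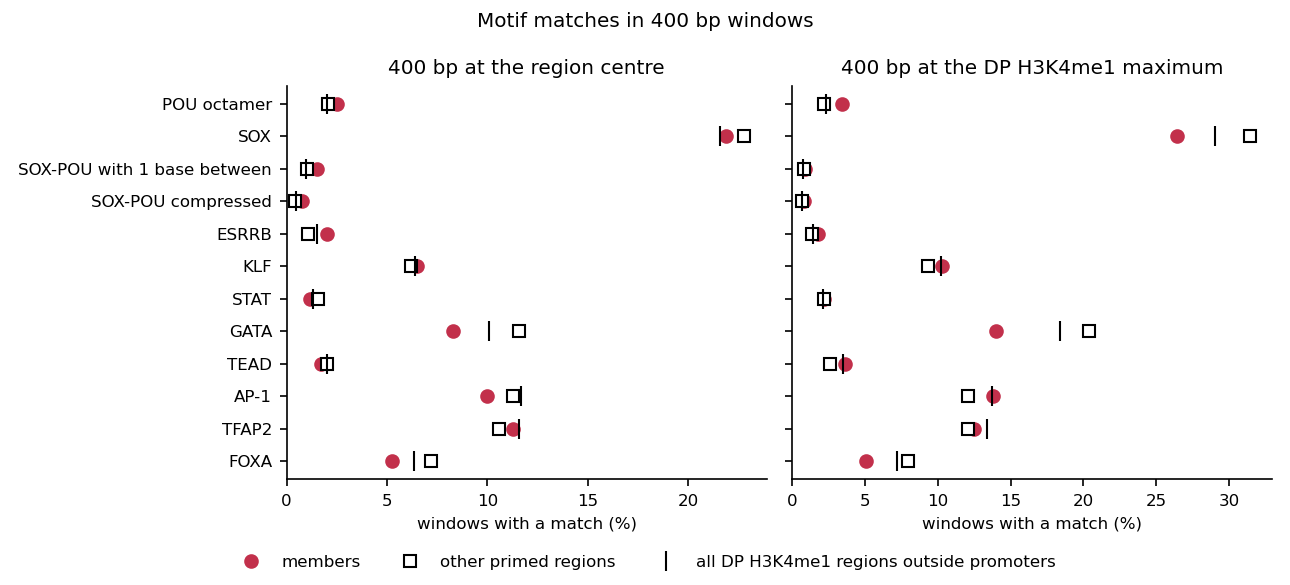
Share of 400 bp windows with at least 1 match to each motif, in percent, at the region centre (left) and at the DP H3K4me1 maximum (right), for members, other primed regions and all DP H3K4me1 regions outside promoters. Members lie left of the other primed regions for GATA (8.27 against 11.6% and 14.0 against 20.4%) and FOXA in both windows, and for SOX most at the maximum (26.4 against 31.4%).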

How the data were processed

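CUT&Tag peak lists of 36 libraries were used. The authors deposited the lists as called by SEACR in stringent mode against an IgG control from BEDtools coverage, and each deposited interval has a total and a maximum signal in unscaled fragment coverage. The submitters' processing notes name mm10 (GRCm38), bcl2fastq 2.19.1, Bowtie2, SAMtools 1.12, deepTools, SEACR and bedtools 2.26.0. Each library was called on its own. Depth is unknown, so no interval or floor was computed, and the absence of a peak from a list does not show that the mark is absent. The 3 IgG samples were not used here.

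Regions were merged per mark and population in Python 3.11.15 (NumPy 2.4.6, pandas 2.3.3), an overlap was 1 base or more, and the steps were tested on simulated data and against bedtools 2.31.1. TSSs came from the GENCODE M21 basic annotation, and the GRCm38 sequence from RefSeq was read with pysam 0.24.0. Shares were tested over libraries: splits of 3 against 3, sign flips of within-library differences, or the F statistic over all assignments of 9 libraries, all exact and two-sided, with Benjamini-Hochberg adjustment within 3 between-population tests, 4 tests of members against other primed regions and 3 added tests of their difference between populations (threshold 0.05). Measures that chose the members were not tested. Members and lists were chosen with earlier results of these data known.

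Loci named were those the study discusses for these marks; list genes with a member within 20 kb; the 10 members with the highest mean percentile of Oct4 H3K27ac signal; up to 5 each with Pdgfra H3K27ac, H3K27me3 or H3K9me3; and the 5 genes nearest to most members, ties taken by name. Same-numbered libraries did not deviate together over members (correlations −0.294 to 0.144, over 0.1 in 3 of 15 pairs). Alternatives were the consensus rule, equal peak numbers, the top 50% of peaks, an overlap of 500 bp, wider promoters, the central 1 kb and each library left out, and, after the data were seen, a common minimum of H3K27ac signal, a larger annotation and a window at the H3K27ac maximum.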

Additional observations from a re-analysis of the deposited data

Results flagged for a closer look

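The H3K4me1 difference between members and other primed regions was flagged because every library of one population moved one way and every library of the other the opposite way. All 3 Oct4 libraries were higher at members (22.6, 44.2 and 37.3 points) and all 3 Pdgfra libraries were lower (−1.01, −0.729 and −5.98 points), a gap of 37.3 points that had the smallest p which 3 against 3 libraries allow (exact permutation p = 0.10, adjusted p = 0.150).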

How the results depend on the processing

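The number of members depended on the lists. It was 2765 with regions from at least 1 library, 307 with regions from all 3, 50 with equal numbers of peaks, 545 with the top 50% of peaks and 351 with the common minimum of H3K27ac signal. With each replicate left out in turn it ran from 442 to 1768, falling to 447 and 442 without Oct4 H3K27ac replicates 1 and 2 and to 555 and 496 without DP H3K4me1 replicates 2 and 3. With TSSs of the comprehensive annotation it was 1041.

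The H3K9me3 excess at members kept its sign in all 17 alternatives, at 1.07 to 1.64 points with each library left out, and lost the adjusted threshold with regions from at least 1 library (1.09 points, adjusted p = 0.0938), equal numbers of peaks (0.543, adjusted p = 0.438), promoters of 5 kb to each side (1.25, adjusted p = 0.312) and the central 1 kb (0.967, adjusted p = 0.109), all by the exact sign-flip permutation test, and the cause was not tested. Over these 17, adjusted p ran from 0.0156 to 0.438. The H3K27me3 difference between Oct4 and Pdgfra at members, 0.141 points, reversed in 6 of 15 alternatives and was 0 with equal numbers of peaks: it was −0.326 with regions from all 3 libraries, −0.0358 with wider promoters, −0.190 with the common minimum, and −0.338, −0.113 and −0.0281 without Oct4 replicate 3, Pdgfra replicate 1 and Pdgfra replicate 2 (−0.338 to 0.563 over the libraries left out); the cause was not tested. The Pdgfra H3K27ac excess at members, 1.39 points, reversed to −0.120 with equal numbers of peaks and ran from 1.24 to 1.64 with each library left out. The H3K4me1 gap between Oct4 and Pdgfra at members ran from 18.0 to 42.4 points with each library left out, and the mean excess of H3K4me1 at members over both populations from 10.4 to 20.5; these, the H3K27me3 difference between members and other primed regions (−0.561 to −0.170) and the H3K9me3 gap between populations (1.21 to 4.36) kept their sign and their side of the threshold in all alternatives run, in designs that could mostly not pass it. Permutation within replicate numbers (the replicate block) left the values of 27.8, 0.141 and 2.78 points and changed no call. GATA matches were in 14.0% of members at the DP H3K4me1 maximum instead of 8.27%, and the POU octamer in 1.69% at the Oct4 H3K27ac maximum instead of 2.53%. Depth is unknown, so shares cannot be told apart from differences in how many peaks each list holds.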

Other observations

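Chromosome 6 held 118 members (9.96%), 12.7% of the other primed regions and 10.1% of all DP H3K4me1 regions outside promoters, and 5.89% of those acetylated in both DP and Oct4. H3K4me1 regions of Oct4, DP and Pdgfra had 10, 10.4 and 13.1% of their number on it, against 6.02, 4.97 and 4.86% for H3K27ac. Chromosome X held 1 member.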
